A study of Mus musculus with 20 samples.

Results

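The genes described here are 9 genes of pyruvate entry and the citric acid cycle: Pdha1, Pdhb, Dlat, Pcx, Cs, Idh3a, Ogdh, Sucla2 and Mdh2. They were chosen by name, as the rows of the deposited count table whose gene identifier maps to these symbols, and all 9 were found among 55401 genes. All 9 were also among the 15986 genes with enough counts to be tested. The table covers polyA RNA-seq of 20 mouse libraries, 10 of mice on a control diet (Control 1 to 10) and 10 under random food restriction (Restricted 1 to 10), which joined intermittent fasting with a calorie restriction of 5%. The tissue label of every library is eWAT, the white fat of the epididymal pad, but the protocol for RNA isolation speaks of QUAD, which commonly stands for the quadriceps. The sources used here do not give strain, genotype, age or length of the regime, and neither group is described as carrying an allele or receiving a drug. A further label marks 7 control and 3 restricted libraries as carrying spermatocyte contamination (Yes) and the other 3 control and 7 restricted libraries as free of it (No). The labels do not tie libraries to animals, and the p-values therefore cover no more than the variation among these libraries, which may be technical.

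Pyruvate, the end product of glycolysis, enters the mitochondrial matrix through a carrier and then meets competing enzymes. The pyruvate dehydrogenase complex turns it irreversibly into acetyl-CoA, and kinases and phosphatases switch that complex off and on. Pyruvate carboxylase turns it into oxaloacetate, which refills the citric acid cycle. In white adipocytes this refilling is known to feed the export of citrate for fatty acid synthesis and the making of glycerol phosphate for triglycerides, so that both routes serve fat storage as well as respiration.

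Library totals ran from 14306528 to 44061508 counts, and each of the 9 genes had at least 1578 counts in every library. Values are CPM (each count scaled to a common library size after TMM factors), unless they are given per length. Markers of adipocytes were abundant in all 20 libraries, with summed CPM over 8 genes of 34400 to 46600 in the controls and 38300 to 51400 in the restricted group. Skeletal muscle transcripts were present in Control 1 to 5 and in Restricted 1, where 14 muscle markers summed to between 928 and 3960 CPM, against 21.4 to 124 CPM in the other 14 libraries. Restricted 1 had the highest muscle sum, and Restricted 10 the highest of the other 14. These 14 are called libraries without muscle transcripts, or that lack them, although low levels remained. Restricted 10 held 3.187 CPM of Ckm and 8.528 CPM of Myh4, and Restricted 3, the next of the 14, held 0.7973 and 3.189 CPM. The 12 germ cell markers summed to 4.78 to 106 CPM (median 13.5) in libraries marked Yes and to 2.97 to 36.7 CPM (median 4.8) in those marked No. For 8 epididymis markers the sums were 0.264 to 443 and 0.403 to 92.2 CPM. Both ranges overlapped, so these markers did not cleanly separate libraries by the contamination label. In a bulk sample, fewer cells of a type and less RNA per cell cannot be told apart.

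No motif among the 5 searched was shared by the promoters of all these genes. RefSeq windows on GRCm38.p6, from 250 bases before to 50 bases after each start, were at hand for 8 of the 9 genes, and not for Idh3a. A CCAAT box (CCAAT, on either strand) occurred in the windows of Cs, Ogdh, Pcx and Pdhb and in 37.4% of all 32851 windows. A GC box (GGGCGG, on either strand) occurred in 7 of the 8 genes, all but Pdha1, and in 35.7% of all windows. For every motif a gene counts if any of its starts has a match (Ogdh has 6 starts and Pcx 2). The share counts single windows, so it is not directly comparable with the number of genes. The NRF1 motif, GCGCA and GCGC with 1 base of any kind between them, also read on both strands, was found in Sucla2 alone, beginning 17 bases before the start, and in 4.6% of all windows. The motif AAGGTCA of the oestrogen-related receptors (both strands) occurred for 1 of 6 starts of Ogdh and in 4.72% of all windows, and the ETS motif CCGGAAG (both strands) in none of the 8 genes and in 8.86% of all windows. No 2 of these motifs overlapped in the windows of these genes, and a match of letters is not a measured binding site. The sequences below set the first enzyme of the cycle and both entry routes side by side, each 100 bases long and read 5′ to 3′ on the gene's own strand, with matches that lie wholly within it in capitals. They are Pdha1 (chrX:160138431-160138530, minus strand), Pdhb (chr14:8173026-8173125, minus strand, its end moved upstream so that no annotated exon is included), the first start of Pcx (chr19:4510372-4510471, plus strand), its second start (chr19:4594219-4594318, plus strand, inside the gene and 83847 bases further on) and Cs (chr10:128337627-128337726, plus strand).
Pdha1: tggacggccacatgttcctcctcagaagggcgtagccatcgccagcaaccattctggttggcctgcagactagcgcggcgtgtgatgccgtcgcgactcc
Pdhb: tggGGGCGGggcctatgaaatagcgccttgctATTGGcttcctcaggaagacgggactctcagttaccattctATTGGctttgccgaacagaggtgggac
Pcx, first start: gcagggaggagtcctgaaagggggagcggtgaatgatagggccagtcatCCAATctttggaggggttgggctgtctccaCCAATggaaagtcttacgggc
Pcx, second start: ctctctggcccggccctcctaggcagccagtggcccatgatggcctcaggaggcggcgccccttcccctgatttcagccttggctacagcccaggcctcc
Cs: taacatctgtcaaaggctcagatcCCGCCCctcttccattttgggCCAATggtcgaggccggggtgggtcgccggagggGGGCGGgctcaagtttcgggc
Capitals appear as CCAAT boxes in Pdhb (as the complement), at the first start of Pcx and in Cs, and as GC boxes in Pdhb and Cs, whereas the sequences of Pdha1 and of the second Pcx start hold none of the 5 motifs.

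Pcx was by far the most abundant of the 9 genes. Per length (TPM, transcript abundance from the gene lengths of the deposited table), its level in the controls was 1725 ± 194.9 TPM (SD, n = 10). The next level was that of Mdh2, malate dehydrogenase of the matrix, at 374.1 ± 17.62 TPM. Cs (326.1 ± 20.93 TPM), Pdha1 (319.5 ± 32.75 TPM) and Ogdh (292.8 ± 20.17 TPM) followed, and in this stretch of the order each gene's control range overlapped that of its neighbour. Pdhb stood lower at 160.1 ± 19.13 TPM, Idh3a at 112.5 ± 13.69 TPM, Sucla2 at 92.41 ± 5.358 TPM and Dlat at 79.95 ± 6.835 TPM. The ranges of Pdhb (131.0 to 202.3 TPM) and Idh3a (90.84 to 129.6 TPM) did not overlap, whereas those of Idh3a and Sucla2, and of Sucla2 and Dlat, did. In the restricted group the order by median was the same but for Pdha1 (334.5 TPM), which stood above Cs (295.0 TPM) there. Subunits of 1 complex thus differed in transcript level by this measure, with Pdha1 at 319.5 TPM and Dlat at 79.95 TPM in the controls. The order of the genes depends on the deposited lengths, 1 per gene, such as 3734 bases for Pdha1 and 4886 bases for Dlat.

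**Figure D1:**
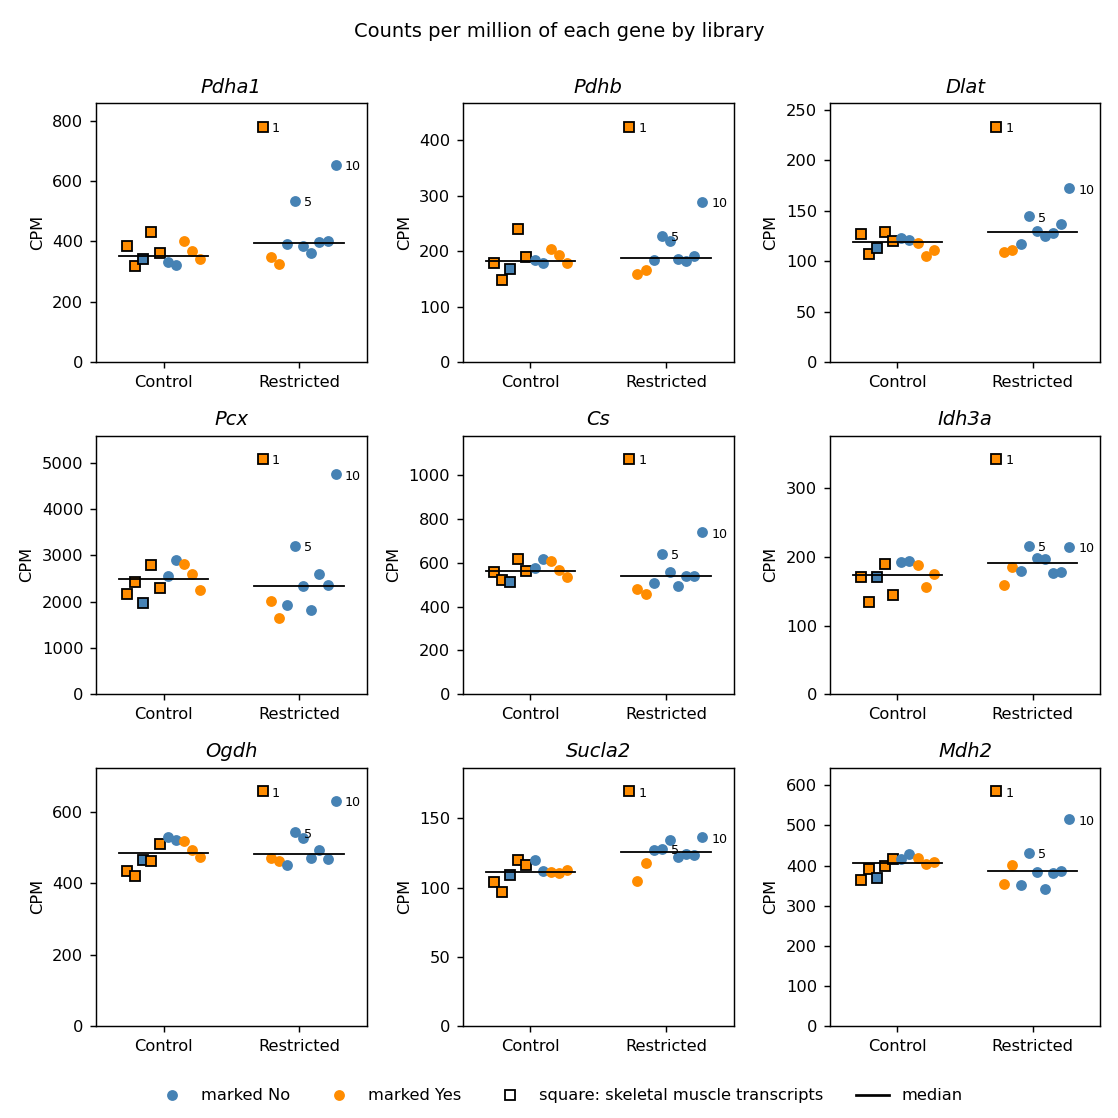
CPM (vertical axes, from 0) of each of the 9 genes in every library, by diet (horizontal axes). Colours give the contamination label, squares are the 6 libraries with skeletal muscle transcripts, bars are medians, and Restricted 1, 5 and 10 are numbered; Restricted 1 is the highest point in all 9 panels, at 778.9 CPM for Pdha1 and 5082 CPM for Pcx.

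The question of the design is whether restriction changed these transcripts. Of the 9 genes, 1 passed the test for diet (edgeR's quasi-likelihood test with the contamination label and diet as terms, Benjamini-Hochberg adjusted p under 0.05 over all genes tested), and it was Sucla2, which was higher under restriction. Among all genes tested, 2173 (13.6%) passed, 1008 (6.31%) of them higher and 1165 (7.29%) lower. All 9 genes had a fold change above 0, with a median log2 fold change of 0.21, where the median of all tested genes was 0.0088. At an unadjusted p under 0.05, 5 of the 9 genes passed, against 28.3% of all genes. DESeq2 on the same counts called Pdha1 (adjusted p = 0.0323) and Sucla2 (adjusted p = 0.0278), where it called 16.3% of all genes. Without Restricted 1 none of the 9 passed in edgeR, where 1783 of 16135 genes (11.1%) did, none reached an unadjusted p under 0.05, 6 of the 9 fold changes were above 0, and their median was 0.051 on the log2 scale. DESeq2 was not rerun without that library.

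In the pyruvate dehydrogenase complex, all 3 listed subunits had higher means under restriction, and none passed the test. Pdha1 encodes the alpha subunit of the first component (E1), which holds the sites that the kinases phosphorylate. It lies at X:160122209-160138413, on the minus strand, and carried 318.8, 351.2 and 430.8 CPM at the lowest, median and highest control library. In the restricted group these were 323.7, 394.9 and 778.9 CPM. The groups overlapped, with 3 restricted libraries above every control, namely Restricted 1 (778.9 CPM), Restricted 10 (653.7 CPM) and Restricted 5 (534.9 CPM). The log2 fold change was 0.40 ± 0.146 (SE), with an adjusted p of 0.0698 in edgeR's test. Without Restricted 1 it was 0.19 ± 0.129, with an adjusted p of 0.383, whereas the gene passed without Restricted 3 (adjusted p = 0.0251) and without Restricted 2, both of them low libraries.

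Pdhb, the beta subunit of E1, lies at 14:8165996-8173025 on the minus strand. Its control libraries ran from 147.8 to 239.4 CPM with a median of 181.9 CPM, and its restricted libraries from 158.4 to 424.5 CPM with a median of 188.5 CPM. Only Restricted 1 (424.5 CPM) and Restricted 10 (289.1 CPM) exceeded every control. Its log2 fold change of 0.32 ± 0.152 (edgeR, adjusted p = 0.167) fell to 0.051 ± 0.116 without Restricted 1.

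Dlat, the dihydrolipoamide acetyltransferase (E2) that forms the core of the complex, lies at 9:50634633-50659780 on the minus strand. Its lowest, median and highest values were 105.6, 119.5 and 129.3 CPM in the controls and 109.4, 129.0 and 233.2 CPM under restriction. Here 5 of 10 restricted libraries were above every control in CPM (2 in unscaled TPM), and Restricted 2 and 3, at the other end, lay within the control range. For diet the log2 fold change was 0.28 ± 0.115 (edgeR, adjusted p = 0.109), 0.076 ± 0.0774 without Restricted 1, and past the test without Restricted 2 alone (adjusted p = 0.0466).

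Pcx, pyruvate carboxylase, varied most among the restricted libraries of the 9 genes. It lies at 19:4510472-4621752 on the plus strand, a span that includes both starts printed above. The controls held 1974 to 2894 CPM with a median of 2480 CPM, and the restricted libraries 1648 to 5082 CPM with a lower median of 2341 CPM. Restricted 1 (5082 CPM), Restricted 10 (4748 CPM) and Restricted 5 (3210 CPM) were above every control, whereas 6 of the 8 restricted libraries other than 1 and 10 lay below the control median. The coefficient of variation was 12.3% in the controls and 43.8% under restriction. With all libraries the log2 fold change was 0.18 ± 0.195 (edgeR, adjusted p = 0.575), -0.11 ± 0.178 without Restricted 1, and -0.21 ± 0.211 (adjusted p = 0.62) in the 14 libraries that lack muscle transcripts, so that its direction turned with the choice of libraries.

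**Figure D2:**
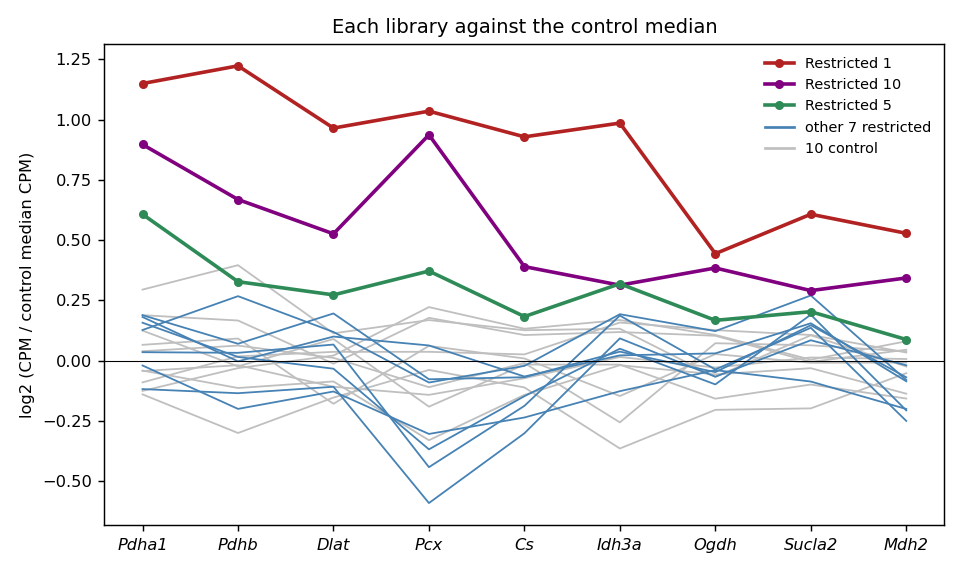
Log2 ratio (vertical axis) of each library's CPM to the control median for the 9 genes (horizontal axis), 1 line per library. On this TMM-scaled CPM, Restricted 1 and Restricted 10 lie above every control for all 9 genes, and Restricted 1 is lowest at Ogdh, with 1.36 times the control median.

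Of the cycle enzymes, Cs comes first: citrate synthase joins acetyl-CoA, the product of pyruvate dehydrogenase, to oxaloacetate, the product of pyruvate carboxylase. The gene lies at 10:128337734-128362479 on the plus strand. Controls ran from 512.1 to 619.3 CPM with a median of 564.9 CPM, and restricted libraries from 458.6 to 1075 CPM with a median of 539.3 CPM. Apart from Restricted 1 (1075 CPM) and Restricted 10 (740.4 CPM), 7 of 8 restricted libraries lay below the control median. Restriction gave a log2 fold change of 0.13 ± 0.128 (edgeR, adjusted p = 0.549) with all libraries and -0.11 ± 0.0841 (adjusted p = 0.448) without Restricted 1.

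Idh3a encodes the catalytic subunit of the NAD-dependent isocitrate dehydrogenase and lies at 9:54586334-54604661 on the plus strand. Its lowest, median and highest values were 134.6, 173.2 and 194.7 CPM in the controls and 158.7, 190.9 and 342.9 CPM under restriction. In this gene Restricted 5 (216.1 CPM) came second, ahead of Restricted 10 (215.2 CPM). Across diets its log2 fold change was 0.26 ± 0.117 (edgeR, adjusted p = 0.146), and 0.055 ± 0.0751 without Restricted 1. Ogdh, the E1 component of the 2-oxoglutarate dehydrogenase complex, lies at 11:6291633-6356642 on the plus strand and ran from 419.4 to 527.4 CPM in the controls and from 451.2 to 657.0 CPM under restriction, with medians of 482.9 and 482.2 CPM. Its log2 fold change was 0.09 ± 0.0781 (edgeR, adjusted p = 0.465), and 0.0034 ± 0.0688 without Restricted 1.

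Sucla2 encodes the ATP-forming beta subunit of succinate-CoA ligase, which makes the ATP of the cycle itself, and lies at 14:73525319-73595783 on the plus strand. Control libraries held 97.02 to 119.8 CPM with a median of 111.3 CPM, and restricted libraries 104.8 to 169.5 CPM with a median of 125.5 CPM. In TMM-scaled CPM, 8 restricted libraries were above every control, all but Restricted 2 (104.8 CPM) and Restricted 3 (118.0 CPM). In unscaled TPM only 2 were, Restricted 1 (124.7 TPM) and Restricted 6 (109.3 TPM), against a highest control of 102.2 TPM. Among libraries marked No, the 3 controls held 108.9 to 119.8 CPM and the 7 restricted libraries 122.3 to 136.1 CPM, whereas their unscaled TPM, 88.79 to 102.2 and 95.27 to 109.3, overlapped. The log2 fold change was 0.21 ± 0.0696 with an adjusted p of 0.0482 in edgeR's test, and 0.11 ± 0.0521 with an adjusted p of 0.202 without Restricted 1. The call was kept in 5 of the 20 fits that each left out 1 library (Control 4, Control 5, Restricted 2, Restricted 3 or Restricted 7), with adjusted p between 0.0123 and 0.202, and was lost with limma-voom with sample quality weights (adjusted p = 0.12) and with plain library totals in place of TMM factors (log2 fold change 0.11, adjusted p = 0.176).

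Mdh2 closes the cycle by turning malate into oxaloacetate, and lies at 5:135778480-135790391 on the plus strand. Its controls ran from 364.2 to 429.3 CPM with a median of 406.0 CPM, and its restricted libraries from 341.5 to 585.5 CPM with a median of 385.6 CPM. As for Cs, 7 of the 8 restricted libraries other than 1 and 10 were below the control median. A log2 fold change of 0.07 ± 0.0886 (edgeR, adjusted p = 0.66) turned to -0.05 ± 0.0733 without Restricted 1.

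**Figure D3:**
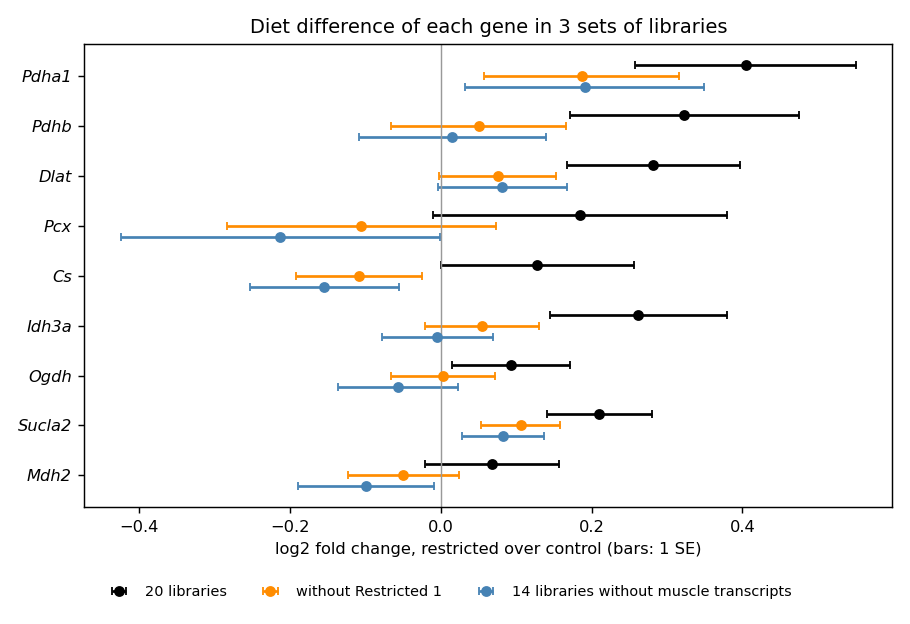
Log2 fold change of restricted over control (horizontal axis, points with bars of 1 SE) for each gene in 3 sets of libraries. The median over the 9 genes is 0.21 with 20 libraries, 0.051 without Restricted 1 and -0.0041 in the 14 libraries without muscle transcripts.

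In TMM-scaled CPM, Restricted 1 and Restricted 10 were above every control for all 9 genes. In unscaled TPM, Restricted 1 still was for all 9, but Restricted 10 for 6 of 9, not for Idh3a (119.4 against a highest control of 129.6 TPM), Ogdh (325.1 against 328.7 TPM) and Sucla2 (96.0 against 102.2 TPM). Against the median of the other 8 restricted libraries, Restricted 1 was 2.34 times higher for Pcx, 2.29 times for Pdhb, 2.05 times for Cs and 2.01 times for Pdha1, but only 1.4 times for Ogdh and 1.37 times for Sucla2. Restricted 10 was 2.19 times higher for Pcx, 1.69 times for Pdha1 and 1.1 times for Sucla2. The TMM factors of these libraries were the lowest of the 20 (0.873 and 0.881), which raises their CPM. On the unscaled TPM, Restricted 1 was still 1.99 times the control median for Pdha1, 1.81 times for Pcx and 1.28 times for Mdh2, and Restricted 10 was 1.6 times for Pdha1, 1.62 times for Pcx and 1.02 times for Idh3a. The summed CPM of 8 brown adipocyte markers was 89.7 in Restricted 1 and 88.4 in Restricted 10, against 36.5 to 64.6 in the other 8 restricted and 32.4 to 41.5 in the control libraries. Cox8b (36.99 and 36.67 CPM, against a control mean of 9.637 CPM) and Cidea (17.82 and 29.13 against 3.497 CPM) made up most of it. Both also passed as higher for diet with all libraries in edgeR. Their log2 fold changes were 1.05 (adjusted p = 0.00875) for Cox8b and 1.63 (adjusted p = 0.00491) for Cidea. Without Restricted 1, Cidea still passed (1.33, adjusted p = 0.0407) and Cox8b did not (0.724, adjusted p = 0.0645). Ucp1, the defining gene of brown fat, was at 0.0 CPM in Restricted 1 and 0.0898 CPM in Restricted 10. In the same libraries Ppargc1a (7.444 and 6.867 against 9.946 CPM) and Dio2 (0.395 and 0.269 against 0.541 CPM) were below their control means. The remaining genes of the 8 were above theirs in both, namely Cox7a1 (9.643 and 4.444 against 3.499 CPM), Ppargc1b (15.79 and 10.55 against 9.639 CPM) and Elovl3 (1.579 and 0.404 against 0.1021 CPM). The summed CPM of 8 macrophage markers was 850 in Restricted 1 and 972 in Restricted 10, with 904 to 1360 in the other 8 and 1190 to 1640 in the controls, and that of 6 progenitor markers 1160 and 1350 against 1310 to 1680 and 1670 to 2290. Restricted 10 thus lay within the range of the other 8 for macrophage and progenitor markers. Their part in the levels of the 9 genes was not tested.

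None of the controls that carried muscle transcripts reached the levels of Restricted 1 in the 9 genes. Their summed muscle markers, at most 2070 CPM, were also below the 3960 CPM of Restricted 1. The part of muscle in the levels of that library was not tested. Control 1 to 5, with muscle transcripts, held 2330 ± 303.9 CPM of Pcx (SD, n = 5), and Control 6 to 10, without them, 2617 ± 251.9 CPM. For Pdha1 these were 367.0 ± 42.84 and 352.2 ± 31.95 CPM, for Cs 554.4 ± 40.97 and 581.7 ± 32.86 CPM, and for Mdh2 388.3 ± 21.79 and 415.2 ± 9.933 CPM. With a muscle index as a further term, edgeR called 3 of the 9 genes higher, Pdha1 (adjusted p = 0.0347), Dlat (adjusted p = 0.0418) and Sucla2 (adjusted p = 0.0307), among 13.4% of all genes called. None of the 9 passed in the 14 libraries that lack muscle transcripts, where 927 of 16591 genes (5.59%) did, and 4 of 9 fold changes were above 0. These ran from -0.21 for Pcx to 0.19 for Pdha1.

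The contamination label moved none of the 9 genes past the test. In the same fit 848 genes (5.3%) passed for the label. For the 9 genes, the log2 difference of Yes over No ran from -0.02 for Ogdh to 0.17 for Pdhb, and none reached an unadjusted p under 0.05. Without Restricted 1 all 9 differences were below 0, from -0.23 for Pcx to -0.043 for Mdh2, and Idh3a had an unadjusted p of 0.0329 (adjusted p = 0.285 in edgeR). In the 14 libraries that lack muscle transcripts all 9 were also below 0, and Dlat, Idh3a and Sucla2 had an unadjusted p under 0.05, with adjusted p of 0.204, 0.289 and 0.243. The germ cell counterpart of Pdha1, the intronless gene Pdha2, gave 22 counts over all libraries, of which 15 (0.708 CPM) were in Restricted 2, a library marked Yes. No gene at all (0.0%) passed the test of an interaction between diet and label in edgeR, where 871 (5.45%) and none of the 9 had an unadjusted p under 0.05. Among the libraries marked No alone, the log2 fold change for diet was 0.43 ± 0.169 for Pdha1, 0.18 ± 0.0675 for Sucla2, 0.14 ± 0.255 for Pcx and 0.02 ± 0.123 for Cs. Among those marked Yes alone, which include Restricted 1, it was 0.39 ± 0.227, 0.26 ± 0.13, 0.25 ± 0.273 and 0.25 ± 0.218. None of the 9 passed within either set, where 2.41% of all genes tested did among libraries marked No and 1.4% among those marked Yes. Muscle transcripts were unevenly spread in both sets. Among libraries marked No only Control 3 carried them, and 8 of 10 tested muscle markers passed as lower (median log2 fold change -5.31). Among those marked Yes, Control 1, 2, 4 and 5 and Restricted 1 did. The part of muscle in these diet differences was not tested.

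Transcript levels of the entry routes can be compared within a library, where the scaling factor drops out. Protein, enzyme activity and flux were not measured. The log2 level of Pcx minus the mean log2 level of Pdha1, Pdhb and Dlat was 3.40, 3.636 and 3.922 at the lowest, median and highest control library, and 3.168, 3.446 and 3.894 under restriction. The groups overlapped over most of their range. Averaged within the contamination label, the restricted libraries were lower by a log2 difference of -0.20, with p = 0.0637 in a two-sided exact permutation of diet within the label. Without Restricted 1 the difference was -0.24 (exact permutation p = 0.0373), without Restricted 10 -0.23 (p = 0.0205), without Control 3 -0.27 (p = 0.0252) and without Control 1 -0.22 (p = 0.0439). In the 14 libraries without muscle transcripts it was -0.34 (exact permutation p = 0.0111). It was -0.20 among libraries marked No (p = 0.258) and -0.20 among those marked Yes (p = 0.133), where each set allows 120 arrangements. With all 20 libraries the ratio therefore did not pass, and it passed only where the named libraries were left out.

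**Figure D4:**
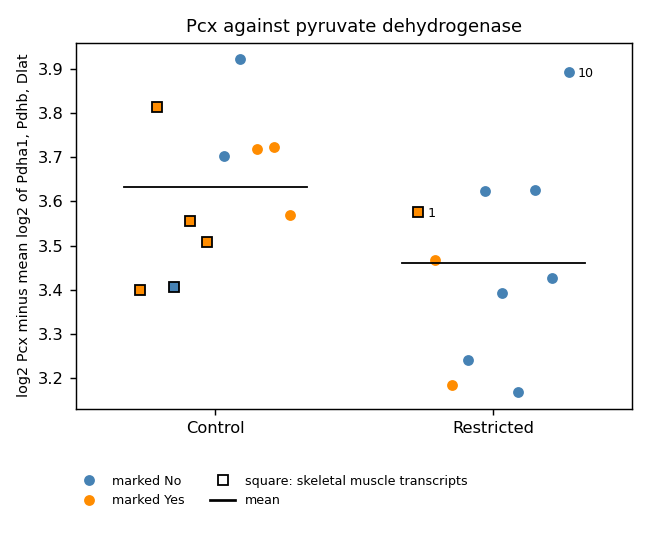
Log2 CPM of Pcx minus the mean log2 CPM of Pdha1, Pdhb and Dlat (vertical axis) in each library by diet, with group means as bars. Colours give the contamination label and squares the libraries with muscle transcripts; the means are 3.632 in the controls and 3.46 under restriction, and Restricted 10 at 3.894 is the highest restricted library.

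The 9 genes varied together across libraries. After centring within the 4 groups of diet and label, the Pearson r of log2 CPM over the 20 libraries ran from 0.7 (Pcx and Sucla2) to 0.958 (Dlat and Cs) over the 36 pairs, with a median of 0.867, and Spearman's rho from 0.629 to 0.937. In a permutation test within the groups the highest Benjamini-Hochberg adjusted p over the 36 pairs was 0.0212 for r and 0.0128 for rho. All pairs share the scaling factors and the same high libraries. No share over pairs of other genes is given here, nor a permutation p without Restricted 1 and Restricted 10. These values therefore do not show a trait particular to the 9 genes. Without the 2 libraries farthest from the median of the first gene of each pair, which were Restricted 1 and Restricted 10 for most pairs, r ran from 0.45 to 0.909, with a median of 0.722. The centring was not repeated there, so the group means still held the libraries left out. For Pdha1 and Pdhb, r without Restricted 1 and Restricted 10 was 0.85 in this way and 0.722 with the centring repeated. With the centring repeated on the 18 libraries left without Restricted 1 and Restricted 10, it ran from 0.16 (Pcx and Sucla2) to 0.905 (Pcx and Cs), with a median of 0.579. The pair of Pcx and Cs thus kept its r, which was 0.943 with all libraries, whereas the pairs of Pcx with Sucla2 and of Dlat with Ogdh (0.788, and 0.335 without both libraries) did not. In the 14 libraries that lack muscle transcripts, Restricted 10 among them, the median was 0.885 and r ran from 0.306 (Pcx and Sucla2) to 0.976 (Pcx and Cs).

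Over the 20 libraries, the genes most like the mean log2 level of the 9 were Hadha (r = 0.969), which encodes the alpha subunit of the mitochondrial trifunctional protein, Tlcd2 (0.966), Aldh1a7 (0.961), Prkaca (0.96) and Ldha (0.96), out of 9493 genes with a mean of at least 10 CPM. Prkaca encodes a catalytic subunit of protein kinase A, and Ldha the lactate dehydrogenase subunit that interconverts pyruvate and lactate. Without Restricted 1 and Restricted 10 their r ran from 0.827 (Prkaca) to 0.916 (Aldh1a7). For Pcx alone, genes most like it were Slc25a1 (r = 0.969), the mitochondrial citrate carrier, Fasn (0.958), fatty acid synthase, Taldo1 (0.955), transaldolase, and Pmvk (0.948), phosphomevalonate kinase. These stood at 0.911, 0.889, 0.884 and 0.888 without both libraries. The level of Fasn was 8130 CPM at the control median, 34020 CPM in Restricted 1 and 22090 CPM in Restricted 10.

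Around the 9 genes, 66 further genes of pyruvate use were described in 7 lists, and 7 of the 66 (10.6%) passed the test for diet, a share below the 13.6% of all tested genes. Of the pyruvate carrier and the remaining subunits of the dehydrogenase complex, 1 of 4 passed, and the median log2 fold change of the 4 was 0.27. It was Mpc1, a subunit of the mitochondrial pyruvate carrier, with 75.52 to 93.8 CPM in the controls and 81.86 to 283.3 CPM under restriction, and medians of 83.0 and 105 CPM. Its log2 fold change was 0.70 ± 0.194 (edgeR, adjusted p = 0.0195), and 0.33 with an adjusted p of 0.155 without Restricted 1. Mpc2, the other subunit, had 0.32 ± 0.136 and did not pass (adjusted p = 0.13).

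Among the kinases that inactivate pyruvate dehydrogenase and the phosphatases that reactivate it, 2 of 7 were higher, 1 was lower, and the median was 0.028. The kinase Pdk1 held 40.22 to 62.74 CPM in the controls and 54.89 to 134.6 CPM under restriction, with a log2 fold change of 0.69 ± 0.174 (edgeR, adjusted p = 0.011) that did not pass without Restricted 1 (0.51, adjusted p = 0.0669). The phosphatase subunit Pdp2 held 23.63 to 30.33 CPM in the controls and 27.43 to 48.55 CPM under restriction. Its log2 fold change was 0.39 ± 0.0941 (edgeR, adjusted p = 0.00871), and it passed in each of the 20 fits that left out 1 library and in the 14 libraries that lack muscle transcripts (0.32, adjusted p = 0.0418). The kinase Pdk3 was lower by a log2 fold change of -0.28 ± 0.087 (edgeR, adjusted p = 0.0396), a call kept in 10 of the 20 fits that left out 1 library and not in the one without Restricted 1 (adjusted p = 0.0784). Pdk4, the isoform known to rise in fasting, had 18.88 to 42.07 CPM in the controls and 18.71 to 43.9 CPM under restriction, and did not pass (log2 fold change 0.03, adjusted p = 0.945). Of the kinases, 1 was thus higher and 1 lower, while the phosphatase that passed was higher. Without Restricted 1, Pdpr, a regulatory subunit of the phosphatase, also passed, as lower (log2 fold change -0.27, adjusted p = 0.0089 in edgeR).

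None of the 12 other cycle enzymes passed, although all 12 fold changes were above 0, with a median of 0.12 on the log2 scale. Their range was narrow, from 0.03 to 0.21, and the gene at its upper end was Sdhd, a membrane anchor of succinate dehydrogenase (adjusted p = 0.0583 in edgeR). Without Restricted 1 the median was 0.035 with 9 of 12 above 0. Of the genes for lipoylation, the attachment of lipoic acid to the E2 subunits, and for cofactors and assembly, 1 of 7 passed, Sdhaf1, an assembly factor of succinate dehydrogenase (log2 fold change 0.37 ± 0.0936, adjusted p = 0.0123 in edgeR), which also passed in the 14 libraries (adjusted p = 0.0399). The median of that list was 0.16.

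Of the 12 genes of citrate export and the cytosolic shuttles, 1 passed, the mitochondrial aspartate-glutamate carrier Slc25a12, which was lower (log2 fold change -0.31 ± 0.0871, adjusted p = 0.0207 in edgeR), but not without Control 3 (adjusted p = 0.0681) or without Control 7. It did not pass in the 14 libraries that lack muscle transcripts either (-0.23, adjusted p = 0.224), where the dicarboxylate carrier Slc25a10 passed as lower (-0.60, adjusted p = 0.0206). The median of this list was 0.06 with all libraries and -0.064 without Restricted 1. Its members with the widest spread were Acly, ATP citrate lyase, at 595.4 to 1416 CPM in the controls and 343.9 to 4422 CPM under restriction, and Me1, cytosolic malic enzyme, at 310.9 to 660.4 and 298.2 to 2229 CPM. Both had their highest value in Restricted 1. The log2 fold change of Acly was 0.59 ± 0.387 (edgeR, adjusted p = 0.331) with that library and -0.37 without it. That of Me1 was 0.76 ± 0.297 (adjusted p = 0.0937) with it and 0.05 without it.

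None of the 9 genes that feed or drain the cycle by other routes passed, with a median of 0.03. Without Restricted 1, Me2, mitochondrial malic enzyme, passed as lower (log2 fold change -0.24, adjusted p = 0.0189 in edgeR), and it also did in the 14 libraries that lack muscle transcripts (-0.29, adjusted p = 0.0294). Of the 15 genes of glycolysis, 1 passed and the median was 0.21. It was Hk2, hexokinase 2, which phosphorylates glucose on its entry into insulin-sensitive tissues. It held 179.5 to 233.5 CPM in the controls, with a median of 199.8 CPM, and 229.2 to 282.0 CPM under restriction, with a median of 247.7 CPM. The groups met only at the edge, and Restricted 1 (270.3 CPM) was not the highest library. In edgeR its log2 fold change was 0.31 ± 0.0613 (edgeR, adjusted p = 0.00234), 0.28 (adjusted p = 0.00737) without Restricted 1 and 0.31 (adjusted p = 0.0259) in the 14 libraries that lack muscle transcripts. Without Restricted 1 the median of the glycolysis list was -0.041, with 6 of 15 above 0.

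**Figure D5:**
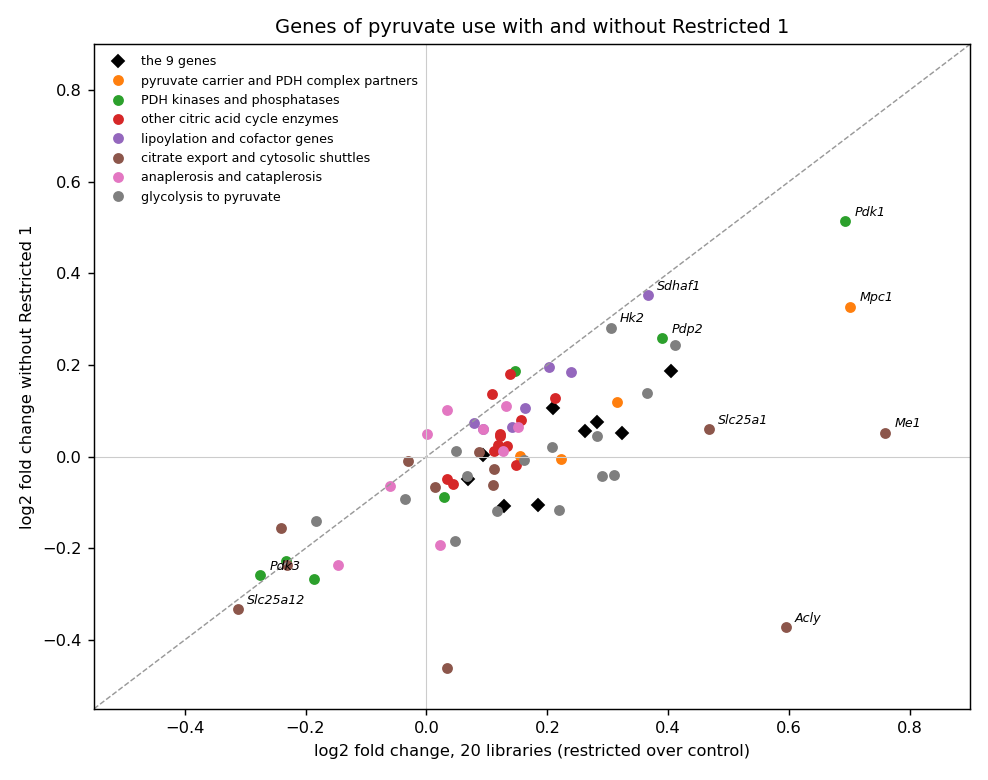
Log2 fold change of restricted over control with 20 libraries (horizontal axis) and without Restricted 1 (vertical axis) for the 9 genes (black diamonds) and the 66 further genes (circles, coloured by list); the dashed line marks equal values. Most genes lie below the line, with Acly moving from 0.59 to -0.37, while Hk2 (0.31 and 0.28) and Sdhaf1 (0.37 and 0.35) stay near it.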

How the data were processed

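PolyA RNA of mouse eWAT was sequenced as 52-bp paired ends, per the labels' protocols. Named in the submitters' processing notes, with no role or order, are GRCm38, STAR, Salmon and bcl2fastq 4.0.3. How reads were assigned to genes, with which annotation and strand setting, is not given in the sources used here. The deposited table holds whole-number counts per gene, unscaled as far as its values show, with coordinates and a gene length in bases that gave TPM. Symbols were found for 55141 of 55401 identifiers. All 20 columns matched a labelled library, and no replicates agreed within sampling noise (lowest chi-square per degree of freedom 9.93).

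Counts were fitted in edgeR 4.0.16 (R 4.3.3) by its quasi-likelihood test (scaling by TMM, at least 10 counts in filterByExpr, label and diet as terms, Benjamini-Hochberg threshold 0.05), with a prior count of 2 for log2 CPM. On simulated counts for this comparison over 15986 genes, 10.3% of genes changed by a log2 fold of 0.25 were called, 56.1% at 0.5 and 80.3% at 1. DESeq2 1.42.0, limma 3.58.1 (voom with sample quality weights) and other factors, filters and sets of libraries were tried. Named are the 9 genes, every other pathway gene that passed and otherwise up to 3 per list with the smallest p (of which some are left out), Pdk4 and Pdha2, 5 genes most like the 9 and 5 most like Pcx, of which 1 is not reported here. The genes and lists, marker lists included, were chosen with earlier results of these data known. Plain library totals, the 13 libraries without Restricted 10 as well, the 18 libraries without Restricted 1 and 10 and diet factors without the label's genes were chosen after seeing the data. Promoters are from RefSeq. Figures were drawn with matplotlib 3.10.9.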

Additional observations from a re-analysis of the deposited data

Results flagged for a closer look

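In 5 of the 9 genes the highest restricted library stood apart from the other 9 by more than Dixon's critical value for groups of 10, and in each it was Restricted 1: Pdhb at 424.5 CPM, Dlat at 233.2 CPM, Cs at 1075 CPM, Idh3a at 342.9 CPM and Sucla2 at 169.5 CPM. The gap to the next library was 0.509, 0.493, 0.543, 0.689 and 0.516 of the group's whole range. In Pdha1, Pcx, Ogdh and Mdh2, Restricted 1 was also the highest, but Restricted 10 lay closer to it. Chance marks about 1 in 20 groups, 20 groups were checked, and the 5 share 1 library, so they are not independent.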

How the results depend on the processing

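Each of the 9 genes had at least 1578 counts in every library. On simulated counts, 10.3% of genes changed by a log2 fold of 0.25 were called. That simulation changed 68 genes by 0.25, 66 by 0.5 and 66 by 1, drawn from tested genes at any level. Far more genes, 2173, were called in the data, so this share need not hold for them or for the 9 genes. Among all genes, 1008 were higher and 1165 lower with TMM factors, and 411 and 1972 with plain library totals, where the median of all genes was -0.079.

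The count of the 9 genes that passed for diet, 1 with all libraries, was 3 with the muscle index and 2 in DESeq2. It was 0 with a minimum count of 1, with no filter on low counts, in limma-voom with sample quality weights, with the RNA integrity number as a term in 17 libraries, in those 17 without it, among libraries marked No or Yes alone, in the 14 libraries without muscle transcripts, in the 13 without Restricted 10 as well, and with plain library totals. It ran from 0 to 3 when 1 library was left out, with 3 without Restricted 2 and 2 without Restricted 3. Of all 16100 genes tested without Restricted 2, 1039 were called higher and 1142 lower. The count over all genes without Restricted 3 is not reported here. The count over all genes, 2173, was 392 with the integrity number in 17 libraries and 1445 without it, 400 and 239 among libraries marked No and Yes, 927 in 14 libraries and 978 in 13. The 7 further pathway genes became 11 in DESeq2, 2 with the integrity number, 0 among libraries marked No and 0 among those marked Yes, and 5 to 12 when 1 library was left out (12 without Restricted 2, 11 without Restricted 3). The cause of these changes was not tested, and the smaller sets differ both in how many libraries they hold and in which. The set of 17 leaves out Control 7, Restricted 7 and Restricted 10, which have no integrity number.

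Expression showed no pairing by replicate number: 0 of 10 same-numbered pairs had a correlation over 0.1 (-0.0964 to 0.0931), and 1 library correlated best with its own number. Such correlations cannot exclude a pairing or a block in the design. With the replicate block, 0 of the 9 genes, 1388 of all genes and 5 of the pathway genes passed, the log2 fold change of Pcx was -0.0097, and the log2 ratio of Pcx to the dehydrogenase differed by -0.17 (exact permutation p = 0.113).

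The ratio was -0.34 in the 14 libraries and ran from -0.27 to -0.14 when 1 library was left out. The median correlation between the genes, 0.867, was 0.722 without the 2 farthest libraries (centring not repeated). It was 0.579 without Restricted 1 and 10 (centring repeated) and 0.885 in the 14 libraries. Signs of the diet difference turned in limma-voom with sample quality weights for Pcx (-0.11), Cs (-0.066) and Mdh2 (-0.027). In the 14 libraries they turned for Pcx (-0.21), Cs (-0.15), Idh3a (-0.0041), Ogdh (-0.056) and Mdh2 (-0.099), and in the 13 for Pdhb (-0.038), Pcx (-0.32), Cs (-0.20), Idh3a (-0.019), Ogdh (-0.088) and Mdh2 (-0.14). Plain totals turned Ogdh (-0.0052) and Mdh2 (-0.034), and libraries marked No alone turned Mdh2 (-0.017). Leaving out 1 library gave -0.11 to 0.30 for Pcx, -0.11 to 0.20 for Cs and -0.049 to 0.12 for Mdh2, below 0 without Restricted 1 alone.

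None of the 9 genes passed for the contamination label under any alternative run. Its sign turned in the 14 libraries for Pdha1 (-0.15), Pdhb (-0.17), Dlat (-0.23), Pcx (-0.36), Cs (-0.19), Idh3a (-0.17) and Mdh2 (-0.065), and with factors computed without the label's genes for Sucla2 (0.0077). Leaving out 1 library gave -0.074 to 0.24 for Pdha1, -0.097 to 0.27 for Pdhb, -0.14 to 0.13 for Dlat, -0.23 to 0.17 for Pcx, -0.12 to 0.19 for Cs, -0.17 to 0.096 for Idh3a, -0.11 to 0.0062 for Ogdh, -0.11 to 0.048 for Sucla2 and -0.043 to 0.12 for Mdh2. RLE and upper-quartile factors and the fit without the label kept the direction of all 9 genes and the call of Sucla2.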
